A study of Homo sapiens with 6 samples.

Results

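The 10 genes NOTCH1, NOTCH2, NOTCH3, JAG1, JAG2, DLL1, HES1, HEY1, HEY2 and HEYL were examined as the receptors, ligands and HES/HEY target genes of the Notch pathway in UE7T-9 cells. They were chosen by name, and 9 of the 10 had a row among the 28181 genes of all 6 libraries. HEYL was not analysed here. UE7T-9 cells are an MSC line, from mesenchymal stem cells of human bone marrow, immortalized with hTERT and the E7 gene of human papillomavirus. RNA was sequenced from UE7T-9 SHC4 (3 libraries), which overexpressed the adaptor gene SHC4 from a lentiviral vector with a CMV promoter, and from UE7T-9 Cont (3 libraries). They are called SHC4 cells and control cells below. The study's methods give a GFP vector for UE7T-9 Cont, whereas the labels call these samples nontarget with the genotype WT. The labels number the libraries as biological replicates. The design text speaks of clones for UE7T-9 SHC4, but neither the number of clones nor whether the 3 libraries of a group came from separate infections or cultures is stated. The p-values below therefore set each group difference against the spread between these libraries, which may be technical. Passage and time in culture are not given in the sources used here.

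Notch signaling passes between cells in contact. A transmembrane ligand of the Jagged or Delta-like family on one cell binds a Notch receptor on its neighbor, ADAM proteases and then the gamma-secretase complex cut the receptor, and its intracellular domain enters the nucleus and joins the DNA-binding protein RBPJ to activate genes such as HES1, HEY1, HEY2 and HEYL. These targets encode basic helix-loop-helix repressors. In bone marrow stroma the pathway is known for restraining the differentiation of mesenchymal progenitors into osteoblasts, and JAG1 on stromal cells is a signal to hematopoietic cells.

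The libraries held 18144993 to 27721397 recovered reads, with control replicate 2 and SHC4 replicate 3 among the shallower libraries. Control replicate 1 stood apart from its group, with a mean chi-square per gene of recovered reads (about 1 under sampling noise) of 94.96 and 147 against control replicates 2 and 3 and of 33.9 against SHC4 replicate 1, where control replicates 2 and 3 differed by 27.9. SHC4 replicate 1 likewise stood apart on this measure, at 83.1 and 69.7 against SHC4 replicates 2 and 3, which differed by 14.5. On this measure each replicate 1 library was nearest to the other, and a source shared by both was not tested. The Pearson correlation of log2 values differed in part. By it SHC4 replicate 1 was nearest to SHC4 replicates 2 and 3 (0.9783 and 0.9751), ahead of control replicate 1 (0.9745). Control replicate 1 was still nearest to SHC4 replicate 1. The unit below is the normalized count, the reads of a gene divided by the size factor of its library, so that 3 reads correspond to between 2.50 and 3.53. SHC4 itself was at 56.5, 157 and 130 in control cells and at 134870, 119166 and 155006 in SHC4 cells, a log2 difference of 10.32 (SE 0.32, limma adjusted p = 2.09e-06), and the reads of the vector and of the cell's own gene cannot be told apart. All 10 markers of mesenchymal stromal cells had a row, and their summed count ranged from 221230 to 643355 in control cells and from 399062 to 585577 in SHC4 cells. Most of this sum came from COL1A1 and COL1A2, with means of 156904 and 139957 in control cells. The log2 difference was above 0 for 9 of the 10 markers and below 0 for 1. The summed count was 155 to 167 against 127 to 160 for 5 of 6 hematopoietic markers, 61.0 to 83.6 against 51.0 to 99.9 for 6 endothelial markers, and 36.5 to 65.3 against 19.1 to 75.6 for 4 of 5 epithelial markers. The endothelial marker CDH5 had 1 read in 1 library of each group and 0 reads in the others. No marker of any list was called by limma, whereas DESeq2 called PDGFRB and RGS5, with 2.2% of all genes called. PDGFRB, picked after its values were seen, was at 4122, 1487 and 1678 in control cells. In SHC4 cells PDGFRB was at 6634, 5281 and 5178 (log2 difference 1.38, limma adjusted p = 0.162, DESeq2 adjusted p = 0.0171).

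Per kilobase of exon, NOTCH2 and NOTCH3 were the highest of the receptors, JAG1 of the ligands and HES1 of the targets in both groups. None of the 9 members was called between the groups (limma, adjusted p below 0.05 and a log2 difference above 1 in size), where 0.0608% of all 23040 genes tested were called. DESeq2 and edgeR on the recovered reads also called none of the 9, with 2.2% and 0.0631% of all genes called. At an unadjusted p below 0.05 there were 2 of 9 members, HEY2 and JAG1, against 14.4% of all genes. The groups did not overlap for 1 of 9 members, HEY2, against 19.3% of all genes. The log2 difference was above 0 for 4 members and below 0 for 5, with a median of -0.02 beside -0.0040 over all genes tested. A p that misses the threshold does not show that the groups were alike, so intervals are given with the differences. As the RNA came from whole cultures, fewer cells of a type and less RNA per cell cannot be told apart in any of these values.

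**Figure D1:**
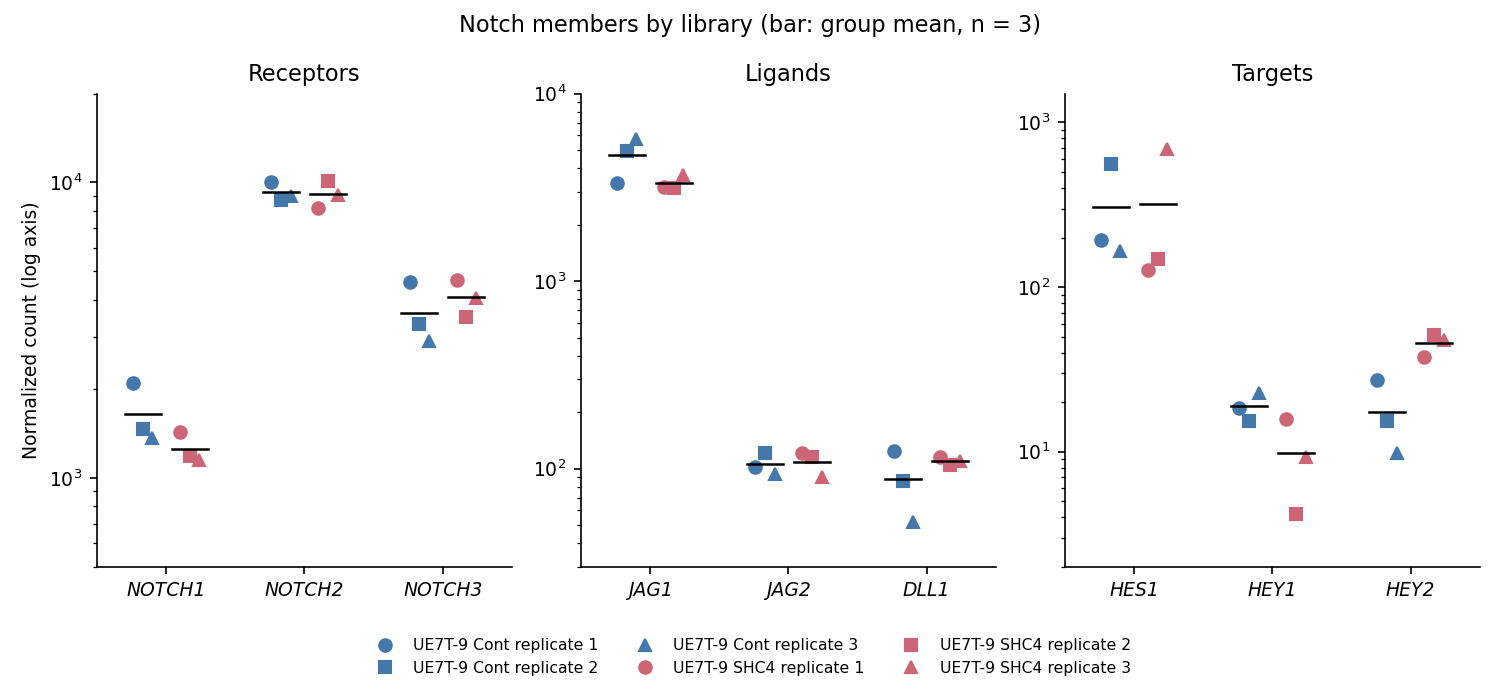
Normalized count (log axis) of the 9 measured members in each of the 6 libraries, with blue points for control cells, red points for SHC4 cells, the marker shape for the replicate number and black bars for the group means. HEY2 is the member whose points do not overlap between the groups (9.84 to 27.3 against 37.8 to 50.8), and HES1 is high in 1 library of each group.

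The promoters of the targets are shown first, because RBPJ reads its site in DNA and the HES and HEY genes are its classical readout. RefSeq promoters (GRCh38.p14, 250 bases before to 50 bases after the start) were found for 8 of the 10 members, all but DLL1 and HEY1. The core of the RBPJ site was searched as TGGGAA, with TTCCCA as its reverse complement. HES1, HEY2 and HEYL held 2 matches each, and the 5 promoters of NOTCH1, NOTCH2, NOTCH3, JAG1 and JAG2 held none. Among all 35116 promoters of the same length, 24.0% held a match and 3.80% held 2 or more. The stretches below cover chr3:194135898-194136172 for HES1 and chr6:125749382-125749656 for HEY2, both on the plus strand, from 250 bases before to 25 bases after the RefSeq start, which for HEY2 lies inside the gene's span in the annotation used below. Capitals mark the core.
HES1: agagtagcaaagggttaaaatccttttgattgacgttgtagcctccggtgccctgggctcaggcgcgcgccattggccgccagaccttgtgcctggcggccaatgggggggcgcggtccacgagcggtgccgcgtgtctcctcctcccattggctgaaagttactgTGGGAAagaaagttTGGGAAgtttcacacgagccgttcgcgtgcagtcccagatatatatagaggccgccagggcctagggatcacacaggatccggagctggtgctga
HEY2: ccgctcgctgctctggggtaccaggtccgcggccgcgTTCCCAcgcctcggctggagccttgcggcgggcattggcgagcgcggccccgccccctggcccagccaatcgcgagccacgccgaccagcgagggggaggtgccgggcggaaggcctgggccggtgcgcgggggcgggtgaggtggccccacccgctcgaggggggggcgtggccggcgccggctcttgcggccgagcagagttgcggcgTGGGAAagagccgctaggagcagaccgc
In HES1 both cores read TGGGAA and began 84 and 70 bases before the start, with 8 bases between them. In HEY2 a TTCCCA began 213 bases before the start, and a TGGGAA began 3 bases before it and ran across it. In HEYL the matches began 178 and 99 bases before the start. Of the sites read by HES and HEY repressors themselves, only CACGTG and CACGCG were counted, and other sites were not searched. CACGTG was in none of the 8 member promoters (7.26% of all promoters), whereas CACGCG, or its reverse complement CGCGTG, was in those of JAG1, JAG2 and HES1 (11.4% of all promoters). These are matches of letters, and no binding was measured in these libraries.

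The receptors are large transmembrane proteins that are cleaved when a ligand binds. NOTCH1 (ENSG00000148400, chr9:136494433-136545786 in GENCODE 29 on GRCh38, minus strand) had normalized counts of 2101, 1463 and 1359 in control cells and of 1428, 1185 and 1149 in SHC4 cells. The lowest pair of libraries belonged to SHC4 cells, but the groups overlapped, since SHC4 replicate 1 lay above control replicate 3. The means were 1641 ± 402 and 1254 ± 152 (SD, n = 3), a log2 difference of -0.37 (SE 0.18, 95% interval -0.77 to 0.03, limma adjusted p = 0.390). The unadjusted limma p was 0.0688 and the interval included 0, so neither a difference nor its absence was shown.

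NOTCH3 (ENSG00000074181, chr19:15159038-15200981, minus strand), the receptor known for its part in vascular mural cells and pericytes, was at 4611, 3319 and 2895 in control cells and at 4679, 3500 and 4054 in SHC4 cells. Control replicate 1 and SHC4 replicate 1 were the highest libraries, and the groups overlapped. The means of 3608 ± 894 and 4078 ± 590 (SD, n = 3) gave a log2 difference of 0.19 (SE 0.19, 95% interval -0.23 to 0.62, limma adjusted p = 0.683). Mural cell markers were measured as a list beside it. All 6 had a row, with a summed count of 7801 to 10275 in control cells and 7955 to 10463 in SHC4 cells. The log2 difference was above 0 for 2 of them, RGS5 and ACTA2 (0.17), and below 0 for 4, MCAM, CSPG4 (-0.12), MYH11 (-0.30) and DES (-0.69), and limma called none. The groups did not overlap for 2 of them, in opposite directions, where 19.3% of all genes did not overlap. RGS5, a marker of pericytes, was at 206, 155 and 95.4 in control cells and at 251, 350 and 425 in SHC4 cells (limma adjusted p = 0.166, DESeq2 adjusted p = 0.0121). MCAM, an adhesion molecule of mural and endothelial cells, was at 1383, 1282 and 988 against 910, 638 and 904 (log2 difference -0.58, limma adjusted p = 0.218, DESeq2 adjusted p = 0.108). RGS5 and MCAM were picked after their values were seen.

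NOTCH2 (ENSG00000134250, chr1:119911553-120069626, minus strand) had the highest level per kilobase of the receptors, with 10034, 8749 and 8985 normalized counts in control cells and 8190, 10120 and 9061 in SHC4 cells. Both the lowest and the highest library belonged to SHC4 cells. Its means were 9256 ± 684 and 9124 ± 967 (SD, n = 3), a log2 difference of -0.02 (SE 0.15, 95% interval -0.36 to 0.31, limma adjusted p = 0.959). NOTCH2 has human-specific partial copies, and 27.4% of its 25-base words occur in other annotated genes. The largest shares were with NBPF19 (25.9%) and NOTCH2NLA (25.3%). Reads from such stretches can be dropped or assigned to another gene, so the count of NOTCH2 is uncertain. The count of NBPF19 was not examined. NOTCH2NLA had 89.7, 88.3 and 90.5 in control cells and 63.3, 99.9 and 101 in SHC4 cells (log2 difference -0.05, limma adjusted p = 0.943).

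In control cells the balance of NOTCH1 and NOTCH3 showed less spread than the level of either. NOTCH1 divided by NOTCH3 in the same library was 0.456, 0.441 and 0.469 in control cells and 0.305, 0.339 and 0.284 in SHC4 cells. All 3 ratios of SHC4 cells lay below all 3 of control cells, with means of 0.455 ± 0.0142 and 0.309 ± 0.0278 (SD, n = 3). The log2 difference of the ratio was -0.56. An exact two-sided permutation test gave p = 0.1, the smallest value that 3 against 3 libraries allow, and the Benjamini-Hochberg adjusted value over the 36 pairs of members was 0.327. Library scaling cancels in such a ratio. This pair was picked after its values were seen, as the largest difference relative to its spread among the 36 pairs. A small spread was thus part of the choice and is not a separate result. Of the 36 pairs, 11 did not overlap between the groups, and 7 of these held HEY2. The pairs reuse the same members and are not independent. The share without overlap among pairs of other genes was not computed, so nothing is read from this count.

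**Figure D2:**
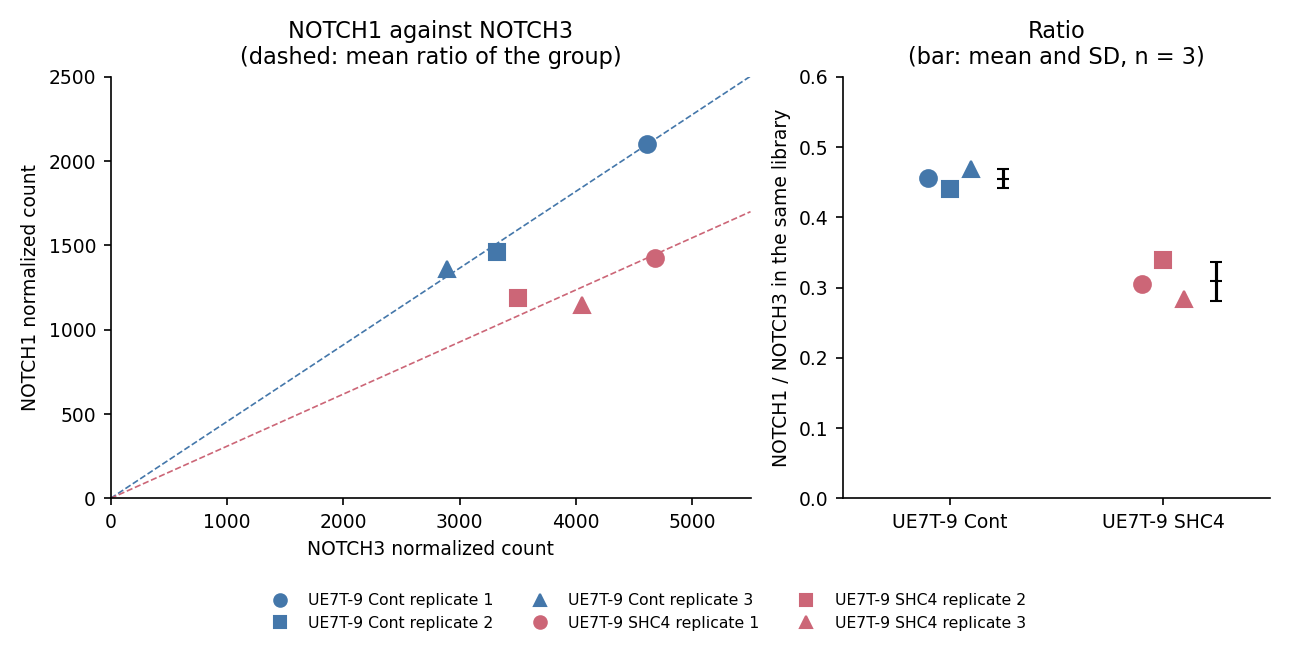
Left, NOTCH1 against NOTCH3 in normalized counts per library, with dashed lines at each group's mean ratio; right, the ratio per library with the mean and SD of each group (n = 3). The 3 control ratios sit between 0.441 and 0.469 and the 3 SHC4 ratios between 0.284 and 0.339.

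Among the ligands, JAG1 had the highest level per kilobase. JAG1 (ENSG00000101384, chr20:10637684-10673999, minus strand), the Jagged ligand of bone marrow stroma, had normalized counts of 3344, 4939 and 5753 in control cells and of 3188, 3126 and 3686 in SHC4 cells. The libraries of SHC4 cells lay close together, and control replicate 1 lay among them and below SHC4 replicate 3. The means were 4679 ± 1225 and 3333 ± 307 (SD, n = 3), a ratio of 0.712 and a log2 difference of -0.46 (SE 0.20, 95% interval -0.90 to -0.01). The unadjusted limma p was 0.0443 and the adjusted p 0.331, and the DESeq2 adjusted p was 0.217. Without control replicate 1 the log2 difference was -0.68 with a limma adjusted p of 0.0254, which remained short of the fold threshold. In that fit 5.68% of all genes had an adjusted p below 0.05.

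The genes nearest to JAG1 in profile were taken by the root mean square distance of log2 values, each centered on its own mean over the 6 libraries, among 12677 genes with a mean of at least 50. They were USP15, a deubiquitinase, at a distance of 0.0476, HIGD1A at 0.0489 and SDE2 at 0.0550, where JAG1 itself had a spread of 0.335 about its mean on the same scale. USP15 read 1033, 1414 and 1656 in control cells and 917, 961 and 1117 in SHC4 cells.

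DLL1 and JAG2 stood far lower per kilobase. DLL1 (ENSG00000198719, chr6:170282206-170306565, minus strand), a Delta-like ligand, was at 125, 85.9 and 52.1 in control cells and at 115, 105 and 109 in SHC4 cells. Its 3 SHC4 values lay inside the range of control cells, with means of 87.6 ± 36.3 and 110 ± 5.13 (SD, n = 3) and a log2 difference of 0.41 (SE 0.31, 95% interval -0.28 to 1.10, limma adjusted p = 0.580). JAG2 (ENSG00000184916, chr14:105140981-105168824, minus strand), the other Jagged ligand, was at 102, 121 and 93.5 against 120, 115 and 89.7. The groups overlapped throughout, and the log2 difference of 0.03 (SE 0.22, 95% interval -0.45 to 0.52, limma adjusted p = 0.962) turned to -0.07 under library size scaling. A same-strand transcript covers 7.33% of the exonic length of JAG2. That transcript had no row here, and whether reads of the shared stretch were dropped is not known.

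Of the targets, HES1 had the widest spread. HES1 (ENSG00000114315, chr3:194136145-194138732, plus strand), a repressor that oscillates in many cell types, had normalized counts of 193, 563 and 166 in control cells and of 127, 149 and 688 in SHC4 cells. Control replicate 2 and SHC4 replicate 3 were high, the other 4 libraries were low, and the groups overlapped. The means of 307 ± 222 and 321 ± 318 (SD, n = 3) came with a log2 difference of -0.16 (SE 0.64, 95% interval -1.60 to 1.29, limma adjusted p = 0.936). DESeq2 and edgeR each gave 0.06 in its place, so no direction was given by these libraries. Without both high libraries the log2 difference was -0.38 (limma adjusted p = 0.846).

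The 5 genes nearest to HES1 in profile, by the same distance, were EGR1 (0.231), NR4A2 (0.440), SCG5 (0.450), CCL3 (0.463) and DUSP1 (0.470), where the spread of HES1 itself was 0.955. HES1 was chosen for this description after its values were seen. EGR1, NR4A2 and DUSP1 are immediate early genes, which answer serum and stress within a short time. EGR1 was at 4370, 9752 and 3245 in control cells and at 2419, 2994 and 9258 in SHC4 cells. DUSP1, a phosphatase of MAP kinases, was at 1400, 3037 and 1897 against 1474, 1741 and 4090. NR4A2, an orphan nuclear receptor, was at 109, 439 and 106 against 104, 120 and 235. In all of these genes the same library was the highest of its group as for HES1, and these are also the shallowest library of each group. The part of depth in this was not tested.

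**Figure D3:**
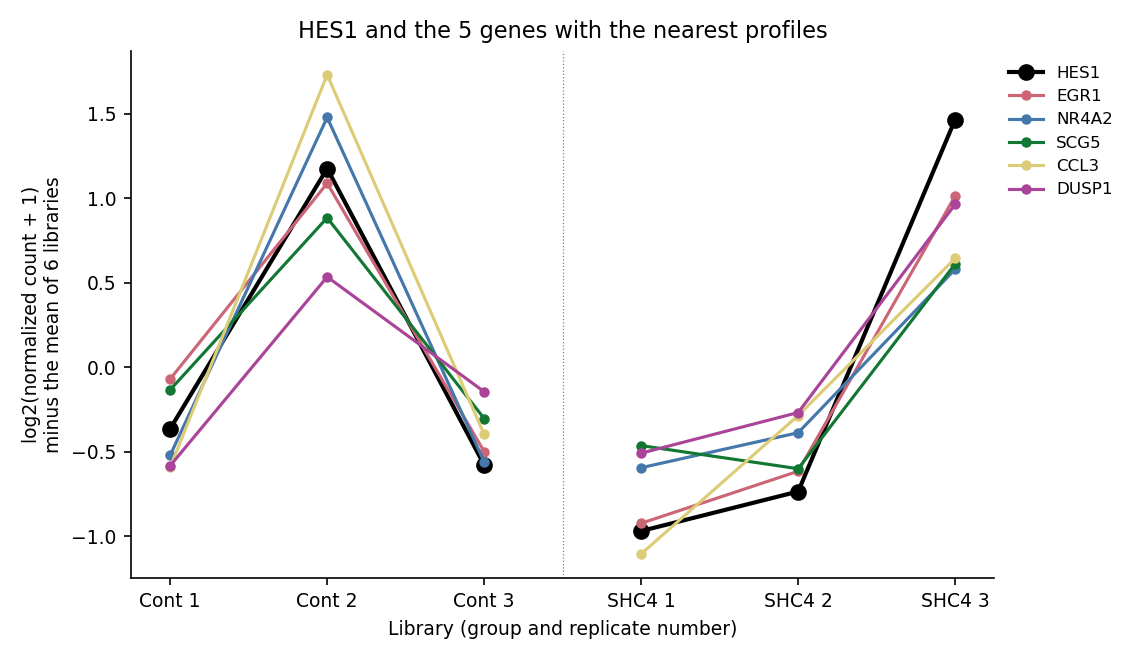
log2(normalized count + 1) minus the mean of the 6 libraries for HES1 and the 5 genes of nearest profile, by library (lines join the points of one gene, and replicate numbers have no order). Control replicate 2 and SHC4 replicate 3 stand above the other library values for HES1 and for EGR1.

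The HEY genes rested on few reads, and their differences had opposite signs. HEY2 (ENSG00000135547, chr6:125747664-125761269, plus strand), a target known from heart and vessel development, had normalized counts of 27.3, 15.3 and 9.84 in control cells and of 37.8, 50.8 and 47.7 in SHC4 cells. Every library of SHC4 cells lay above every library of control cells. The means of 17.5 ± 8.93 and 45.4 ± 6.79 (SD, n = 3) differed 2.60-fold, with a log2 difference of 1.43 (SE 0.41, 95% interval 0.50 to 2.36). The unadjusted limma p was 0.00686, the adjusted p 0.197, the DESeq2 adjusted p 0.0768 and the edgeR adjusted p 0.185, so the difference was not called. It was called without control replicate 1, with a log2 difference of 1.79 and a limma adjusted p of 0.0286, and in no other alternative. Without that library 3.06% of all genes were called. HEY2 rested on 51 reads in control cells and 145 in SHC4 cells, and the ratio of these sums after scaling was 2.57 (95% exact interval 1.86 to 3.61). Such an interval covers counting error only.

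HEY1 (ENSG00000164683, chr8:79764010-79767863, minus strand), the related repressor, was at 18.5, 15.3 and 22.6 in control cells and at 15.8, 4.16 and 9.32 in SHC4 cells. SHC4 replicate 1 lay just above control replicate 2, so the groups overlapped. The means were 18.8 ± 3.67 and 9.77 ± 5.84 (SD, n = 3), a log2 difference of -1.02 (SE 0.52, 95% interval -2.19 to 0.15, limma adjusted p = 0.410). The sums were 55 and 31 reads, a ratio of 0.510 (95% exact interval 0.317 to 0.806, counting error only). HEY1 divided by HEY2 in the same library was 0.679, 1.00 and 2.30 in control cells and 0.419, 0.0820 and 0.195 in SHC4 cells, again without overlap. This ratio was among the 7 with HEY2, which did not overlap by itself either, of the 11 pairs without overlap. Its exact permutation p was 0.1, with an adjusted value of 0.327 over the 36 pairs.

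**Figure D4:**
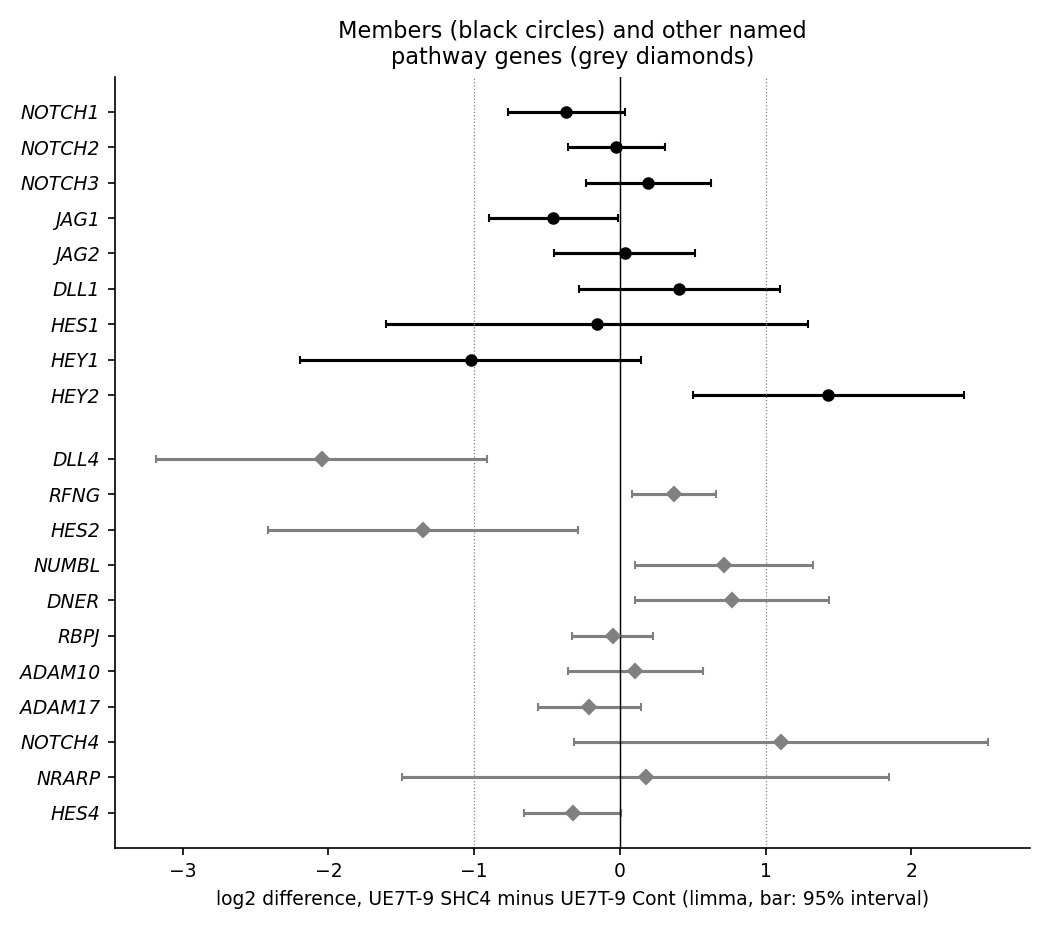
Log2 difference between SHC4 cells and control cells with its 95% interval from limma for the 9 members (black circles) and 11 other named pathway genes (grey diamonds), with dotted lines at the fold threshold. Among the members the intervals of HEY2 (0.50 to 2.36) and JAG1 (-0.90 to -0.01) leave out 0, and none of the 20 genes was called.

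Levels can be set between genes once divided by exonic length. On this scale, in normalized counts per kilobase, NOTCH2 stood at 551 ± 40.7, JAG1 at 503 ± 132 and NOTCH3 at 384 ± 95.1 in control cells (SD, n = 3). NOTCH1 at 158 ± 38.7 and HES1 at 149 ± 107 followed. DLL1 at 27.2 ± 11.3, JAG2 at 16.5 ± 2.22, HEY2 at 6.38 ± 3.26 and HEY1 at 5.82 ± 1.14 were the lowest. In SHC4 cells the levels per kilobase were 543 ± 57.5 for NOTCH2, 434 ± 62.8 for NOTCH3 and 358 ± 33.0 for JAG1. HES1 stood at 156 ± 154 and NOTCH1 at 121 ± 14.6, with DLL1 at 34.0 ± 1.59, JAG2 at 16.9 ± 2.56, HEY2 at 16.6 ± 2.48 and HEY1 at 3.02 ± 1.81. Over all 6 libraries, the ranges of neighbors in this order were apart only between NOTCH3 and NOTCH1 and between HES1 and DLL1. JAG1 and NOTCH3, and NOTCH1 and HES1, changed places between the groups within their spread. With the longest coding transcript as the length, a choice added after the data were seen, JAG1 stood above NOTCH3 and HES1 above NOTCH1 in both groups, and HEY1 above HEY2 in control cells.

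The other genes of the pathway were read from lists by role. Of 56 listed genes, 52 had a row and were tested, and DLK1, DTX1, HES3 and HES5 were not analysed here. None of the 52 was called by limma, DESeq2 or edgeR, though 5 had no DESeq2 adjusted p. The log2 difference was above 0 for 27 genes and below 0 for 25, with a median of 0.01. At an unadjusted p below 0.05 there were 5 of 52 genes (9.62%, against 14.4% of all genes), of which RFNG, NUMBL and DNER had higher values in SHC4 cells and DLL4 and HES2 lower ones. The groups did not overlap for 7 of 52 (13.5%, against 19.3% of all genes), with RFNG higher and DLL4, FURIN, MAML2, NCOR1, HES2 and HES4 lower in SHC4 cells. Both shares were below the background.

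Among the remaining receptors and ligands the counts were small. DLL4, the Delta-like ligand of endothelial cells, had 12.7, 16.5 and 10.8 normalized counts in control cells and 3.52, 1.66 and 2.33 in SHC4 cells. The groups did not overlap, and the SHC4 values stood for 4, 2 and 2 reads. Over each group DLL4 had 38 and 8 reads, a ratio of 0.190 after scaling (95% exact interval 0.0767 to 0.414, counting error only), and its limma adjusted p was 0.166. NOTCH4, the receptor best known from endothelium, was at 1.95, 14.1 and 5.90 against 14.1, 10.8 and 16.3, with overlap (log2 difference 1.11, limma adjusted p = 0.456). Of the 6 endothelial markers 4 passed the filter on low values, and all of these overlapped between the groups. The log2 difference was 1.12 for PECAM1, -0.03 for VWF, -0.35 for CLDN5 and -1.46 for TEK, while CDH5 and TIE1 were near 0 in every library. DNER, a ligand of neural cells without the usual receptor-binding domain of the family, was at 68.2, 150 and 107 against 140, 208 and 189, also with overlap (log2 difference 0.77, limma adjusted p = 0.288).

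Genes that modify ligand or receptor were read next. RFNG, a glycosyltransferase of the Fringe family that alters which ligands a receptor answers, was at 761, 676 and 608 in control cells and at 881, 862 and 893 in SHC4 cells. The groups did not overlap (log2 difference 0.37, SE 0.13, limma adjusted p = 0.246). Of the 5 glycosylation genes 4 lay above 0, with a median log2 difference of 0.13, and none was called. All 4 ubiquitin ligases that prepare ligands for signaling lay above 0, with a median of 0.46, where 49.7% of all genes did, and again none was called. The largest difference of the 4 was that of NEURL1 (1.67), picked after its values were seen. It rested on means of 0.984 and 4.52 normalized counts, the level of a few reads, with overlap. NEURL1B, another of the 4 ligases, was at 722, 379 and 268 against 626, 759 and 614, with overlap. Without control replicate 1 its log2 difference moved from 0.66 to 1.06 and it was called (limma adjusted p = 0.0130), and NEURL1B was picked for that after its values were seen. NUMBL, a relative of the receptor antagonist NUMB, was at 826, 446 and 382 against 983, 919 and 691. Its groups overlapped through control replicate 1, and without that library its log2 difference moved from 0.72 (limma adjusted p = 0.282) to 1.05 (limma adjusted p = 0.0117), which was called. These were 2 of the 52 genes, beside 3.06% of all genes called without that library.

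The proteases and the nuclear complex had no called member either. Of 9 protease genes, 5 lay above 0 and 4 below, with a median log2 difference of 0.10. ADAM10, which makes the ligand-induced cut, had means of 5880 ± 1323 and 6278 ± 1080 (SD, n = 3, log2 difference 0.11, 95% interval -0.36 to 0.57, limma adjusted p = 0.854). ADAM17 had 1322 ± 237 and 1133 ± 106 (log2 difference -0.21, limma adjusted p = 0.581). RBPJ, the DNA-binding protein of the pathway, had 3528 ± 117 and 3416 ± 330. Its 95% interval of the log2 difference was narrow, from -0.33 to 0.23, around -0.05 (limma adjusted p = 0.887). The median log2 difference was -0.04 over 7 nuclear activators, -0.01 over 9 corepressors and -0.08 over 8 genes of receptor turnover and inhibition.

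Beyond the HES and HEY members, the list of other target genes gave 5 tested genes, HES2, HES4, HES6, HES7 and NRARP. Of these, 2 had values above 0 and 3 below, with a median log2 difference of -0.32. Whether each of them answers Notch in these cells was not tested. HES4, a HES1 relative, was at 322, 406 and 340 in control cells and at 281, 289 and 278 in SHC4 cells. The groups did not overlap, and the log2 difference was -0.32 (SE 0.15, limma adjusted p = 0.355). HES2 was at 11.7, 10.6 and 8.85 against 3.52, 3.33 and 3.49, also without overlap, from 30 and 11 reads (ratio 0.332, 95% exact interval 0.150 to 0.681 for counting error only, limma adjusted p = 0.256). NRARP, a feedback inhibitor of the Notch complex, was at 11.7, 2.35 and 0.984 against 5.27, 3.33 and 3.49, with most values at the level of a few reads. Its log2 difference was 0.18 in limma (adjusted p = 0.938) and -0.32 in DESeq2. Its place among the genes above 0 thus depended on the fit.

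**Figure D5:**
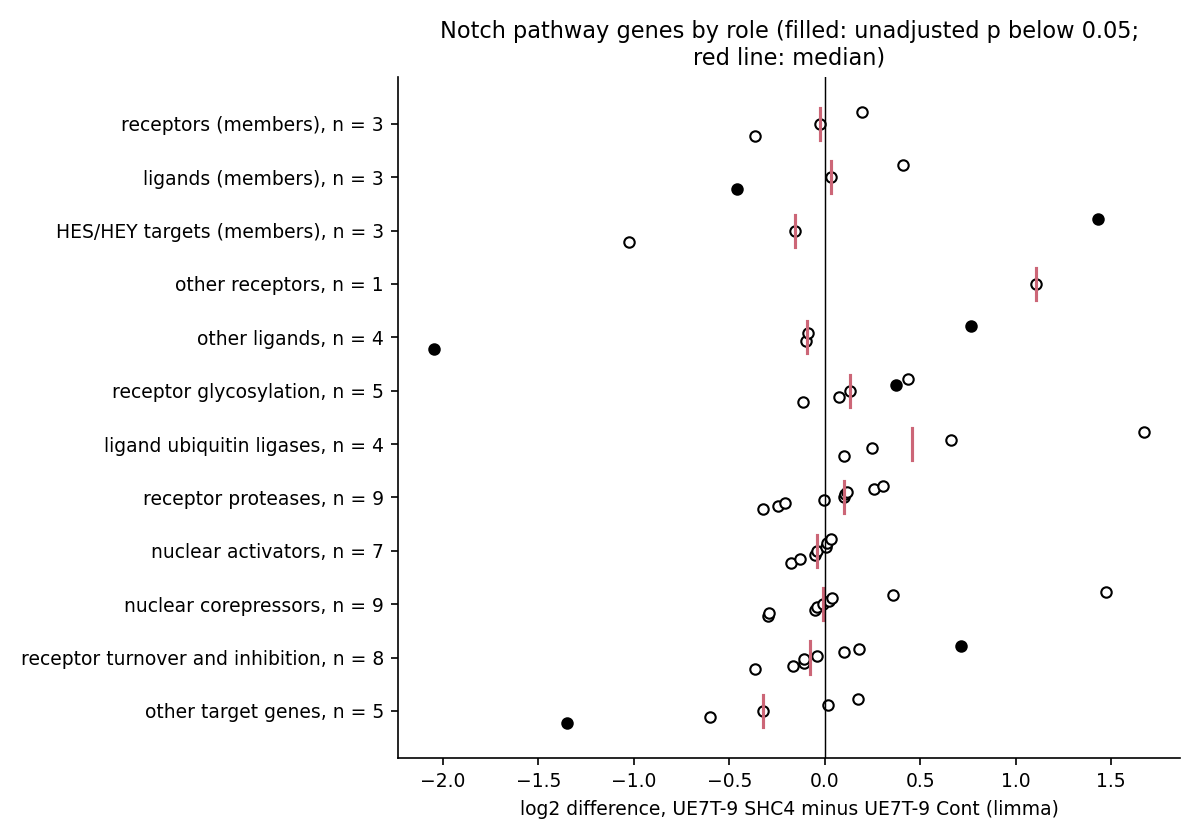
Log2 difference between SHC4 cells and control cells for each measured gene of the Notch pathway by role, with filled points for an unadjusted limma p below 0.05 and a red line at the median of each list. The medians run from -0.32 for other target genes to 0.46 for ligand ubiquitin ligases, apart from NOTCH4, which stands alone in its list at 1.11.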

How the data were processed

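RNA of 3 UE7T-9 Cont and 3 UE7T-9 SHC4 samples was extracted with the RNeasy Mini Kit, prepared with the NEBNext Ultra RNA kit and sequenced on a NovaSeq system by Novogene. The submitters' processing notes name HISAT2 2.0.5, featureCounts 1.5.0-p3 and DESeq2, and the genome build, annotation and strand setting are not given in the sources used here. The authors deposited 1 signal value for each gene of each library, its read count over the library's size factor. Whole reads were recovered by division (100% of values within 0.01 reads). Samples were grouped by their labels.

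The 23040 genes of mean 1 or more (5141 lay below) were fitted with limma 3.58.1 with trend in R 4.3.3 on log2(normalized count + 1), on which the change of low genes is understated. Calls required a p below 0.05 after Benjamini-Hochberg adjustment over all genes and a log2 difference above 1 in size. Alternatives were DESeq2 1.42.0 (adjusted p for 16153 genes) and edgeR 4.0.16 (quasi-likelihood, 15859 genes) on the recovered reads, limma-voom, other scalings, filters and pseudocounts, a replicate block, and leaving out libraries. The fit was tested on simulated counts. Symbols and positions were matched by Ensembl identifier to GENCODE 29 (all 28181), and promoters came from RefSeq (GRCh38.p14). Likeness of profiles was described over the 6 libraries.

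The members and lists were chosen with earlier results of these data known. Named were all members, SHC4, other pathway genes with an unadjusted limma p or a DESeq2 adjusted p below 0.05, and RBPJ, ADAM10, ADAM17, NOTCH4, DLL4, NRARP and HES4, together with the 3 genes nearest in profile to the member of smallest p and a mean of at least 50. A gene that the rule also names is not reported here. Other genes are said to have been picked after their values were seen.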

Additional observations from a re-analysis of the deposited data

How the results depend on the processing

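Of the 9 members, 6 kept their direction in all 17 alternatives. The exceptions were NOTCH2, JAG2 and HES1, all with intervals around 0, and for each of them leaving out SHC4 replicate 1, among others, turned the sign. JAG2 turned to -0.070 under library size scaling, HES1 to 0.063 in DESeq2 and 0.059 in edgeR, and NRARP to -0.0053 with a pseudocount of 5. Leaving out 1 library at a time gave log2 differences from -0.10 to 0.052 for NOTCH2, -0.052 to 0.16 for JAG2, -0.93 to 0.39 for HES1, 1.10 to 1.79 for HEY2, -0.13 to 0.0058 for RBPJ, -0.097 to 0.26 for ADAM10 and -0.40 to 0.94 for NRARP. The number of members called ranged from 0 to 1 and of other pathway genes from 0 to 2, with the 1 and the 2 reached without UE7T-9 Cont replicate 1, where 3.06% of all genes were called. The cause was not tested. The limma adjusted p of HEY2 ranged from 0.0286 to 0.588 over these fits. The median log2 difference of the other pathway genes was -0.091 under library size scaling, which moved the median of all genes to -0.10.

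Over all genes, 12 were called higher and 2 lower. Higher and lower calls were 19 and 5 under library size scaling, 20 and 4 under TMM scaling, 31 and 9 with no filter, and 170 and 185 in DESeq2. Lower calls were 1 each with a pseudocount of 0.1, a pseudocount of 5, edgeR and limma-voom. Leaving out 1 library gave 1 to 367 higher and 0 to 339 lower calls, the highest without UE7T-9 Cont replicate 1. They were 49 and 14 without SHC4 replicate 1, 6 and 0 without control replicate 2, and 1 and 1 without SHC4 replicate 2 and likewise without SHC4 replicate 3. Without both libraries of high HES1, an alternative added after the data were seen, limma called 1 higher and 0 lower. Where limma called 0 lower, 1030 genes (without control replicate 2) and 592 genes (without both) were lower at an unadjusted p below 0.05. No other tool was run on these libraries.

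Replicate numbers were not used as pairs in the main fit. Same-numbered libraries correlated at 0.148, 0.0130 and -0.00696 across genes in their deviations from the group means. The value for replicate 1 was the highest between any control and SHC4 library. Replicates 2 and 3 correlated better across numbers, at 0.0992 for control replicate 2 with SHC4 replicate 3 and 0.0818 for control replicate 3 with SHC4 replicate 2. A source shared by both replicate 1 libraries was not tested. A fit with the replicate number as a block called 25 higher and 14 lower genes and no member, and the block adjusted p of HEY2 was 0.163. Depth limits HEY1, HEY2, DLL4, HES2, NOTCH4, NEURL1 and NRARP, whose values rest on few reads.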
